A study of Mus musculus with 24 samples.

Results

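Day 7 myotubes were compared with day 0 myoblasts of C2C12, an established mouse line of skeletal muscle precursor cells that leave the cell cycle and fuse into multinucleated fibres when serum is withdrawn. The comparison rests on 8 of the 24 libraries in the series, 4 of myotubes and 4 of myoblasts, chosen by their labels, and on the 16257 of 48544 listed genes that passed a filter on low values. Myotubes had spent 7 days in medium with 2% fetal bovine serum, and myoblasts were collected at day 0, near confluence, from medium with 10% serum. All these cells were wild type and untreated, in high glucose medium with antibiotics. The fall in serum and the 7 days in culture belong to the comparison and cannot be told apart from differentiation itself. Libraries were made from polyadenylated RNA with a strand-specific kit. Each library holds the RNA of a whole culture, so more cells of a type and more RNA per cell cannot be told apart. Whether the 4 replicates of a group came from separate cultures is not stated in the labels. The p-values therefore describe the spread among libraries alone, which may be technical. That spread was estimated over all 24 libraries in 6 groups, including later myotubes given dexamethasone or ethanol.

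In differentiating muscle, transcription factors of the MyoD family, working with E proteins and MEF2 factors, switch on the genes of the contractile apparatus, while Id proteins and other inhibitors hold them back in dividing cells. Exit from the cell cycle depends on Cdk inhibitors and on the retinoblastoma protein family, which keeps E2F target genes silent. The cells then fuse through the membrane proteins myomaker and myomerger, build sarcomeres and calcium-release membranes, and exchange many general isoforms of structural and metabolic proteins for muscle isoforms.

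Levels below are TPM, a length-scaled abundance computed by the authors that sums to 1000000 in every library. They are given as mean ± SD over the 4 libraries of a group, and folds are ratios of mean TPM where the lower mean is at least 0.5. Tests were made with limma on the authors' log2 table, and a gene is called higher or lower in myotubes at an adjusted p below 0.05. Differences in that table are shrunken (their slope on log2 differences of TPM was 0.64), so they understate the folds. The median gene with a mean above 1 TPM lay at −0.14 on the log2 scale of TPM, and small differences in TPM are to be read against that shift.

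The sequencing depth is unknown. Between 12428 and 12899 genes reached 1 TPM in each of the 8 libraries. A pair of features with very high TPM, Gm15662 and Mir6236, together took 3.29% to 5.23% of the TPM of the myotube libraries, against 1.25% to 1.71% in 3 myoblast libraries and 7.88% in myoblast replicate 2. Myotube replicate 1 also stood apart from the other 3 myotube libraries in several genes. It was higher in Ckm, Myf5 and genes of dividing cells such as Ccnd1, Mki67 and Mcm3 and lower in Mfap5, Cxcl14 and Gm8300, as described below. Leaving it out made the folds of 11 genes named below over 1.5 times larger, all of them falls, and both folds are given for each. For Igf2 the call was lost without that library. Without myotube replicate 1 the test called 9600 genes, and without myoblast replicate 2 it called 9604, against 9797 with all libraries.

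Of 16257 genes tested, 60.3% were called, 4956 higher (30.5%) and 4841 lower (29.8%) in myotubes. The TPM of the groups did not overlap for 51.2% of them. These shares are the background for every count below, and a list whose shares lie near them shows nothing particular to its genes. A log2 difference of 1 or more was reached by 1328 of the higher and 981 of the lower genes. In the plot of difference against level, sarcomere genes lay far above 0 and genes of mitosis and DNA replication far below it.

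**Figure D1:**
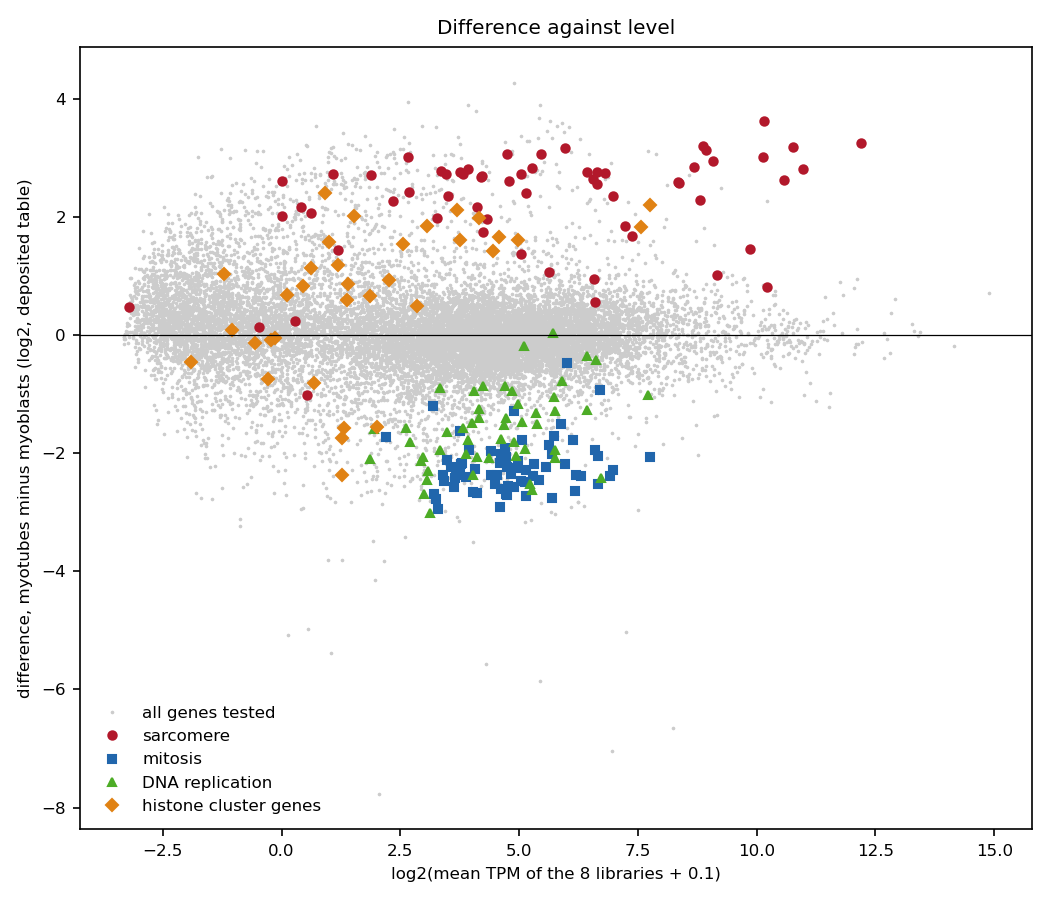
Difference between day 7 myotubes and day 0 myoblasts (vertical axis, log2 of the deposited table) against the mean level of the 8 libraries (horizontal axis, log2 of TPM + 0.1) for the 16257 genes tested. Sarcomere genes (circles) have a median of 2.61, mitosis genes (squares) −2.29 and DNA replication genes (triangles) −1.59, and histone cluster genes (diamonds) lie on both sides of 0.

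Sarcomere genes rose almost as a whole. Of 61 tested, 57 were higher and 1 was lower, with a median difference of 2.61 against 0.015 over all genes tested. Their summed level was 3.69% ± 0.149% of all TPM in myotubes, against 0.228% ± 0.0257% in myoblasts. Acta1, the skeletal muscle alpha-actin, had 3036, 2770.2, 3299.8 and 2783 TPM in the myotube libraries, against 107, 79.0, 105 and 60.4 TPM in the myoblast libraries (33.8-fold, adjusted p = 5.44e-14). The lowest myotube library was many times above the highest myoblast library, and the libraries within each group lay close together. Actc1, the cardiac alpha-actin that embryonic skeletal muscle also makes, rose 18.5-fold to 625 ± 42.5 TPM (adjusted p = 2.1e-13). Nebl, which encodes the nebulin relative nebulette of heart muscle, was the gene that fell, at 0.686 ± 0.258 TPM in myotubes against 2.02 ± 0.746 TPM in myoblasts (adjusted p = 0.000141).

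Among myosin heavy chains the embryonic and fast forms dominated the myotubes. Myh1, the fast IIx chain, reached 218 ± 47.9 TPM and Myh3, the embryonic chain, 189.6 ± 44.8 TPM in myotubes. Myh8, the perinatal chain, had 39.3, 22.5, 48.6 and 36.0 TPM in the myotube libraries, against 0.748, 0.206, 0.449 and 0.222 TPM in the myoblast libraries (adjusted p = 6.78e-12). Every myotube library exceeded every myoblast library, and myotube replicate 2 was the lowest of its group. The slow chain Myh7 stood at 25.9 ± 8.01 TPM in myotubes against 0.923 ± 0.302 TPM in myoblasts and the fast IIb chain Myh4 at 27.5 ± 7.86 TPM in myotubes against 0.406 ± 0.327 TPM in myoblasts, while Myh2, the IIa chain, reached 7.02 ± 1.49 TPM in myotubes. All 6 of these genes were called higher without overlap. The heavy chains of nonmuscle cells fell, Myh9 by 1.88-fold and Myh10 by 2.72-fold (adjusted p = 1.91e-06 and adjusted p = 3.35e-10).

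Fast and slow troponins rose side by side. Of 12 troponin and tropomyosin genes tested, 9 were higher and 2 lower. The slow inhibitory subunit Tnni1 stood at 2217 ± 129 TPM in myotubes against 41.9 ± 9.02 TPM in myoblasts, above its fast counterpart Tnni2 at 919 ± 117 TPM in myotubes against 12.5 ± 1.04 TPM in myoblasts. For troponin T the fast form Tnnt3 reached 1061 ± 102 TPM, the cardiac and embryonic form Tnnt2 839 ± 67.4 TPM and the slow form Tnnt1 618 ± 19.9 TPM in myotubes. The genes that fell were the tropomyosin genes Tpm3 (1.72-fold) and Tpm4 (2.11-fold). Tpm3 makes a slow muscle form as well as forms of nonmuscle cells, and levels per gene do not separate them. The giant scaffold genes rose to lower levels: Ttn, titin, had 17.4 ± 8.10 TPM in myotubes against 1.69 ± 0.448 TPM in myoblasts, and Neb, nebulin, which sets thin filament length, 67.6 ± 25.1 TPM in myotubes against 2.84 ± 0.586 TPM in myoblasts. Assembly factors that rose include the myosin chaperone Unc45b (39.6-fold) and the Kelch proteins Klhl40 (57.5-fold) and Klhl41 (34.3-fold), which stabilise thin filament proteins.

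**Figure D2:**
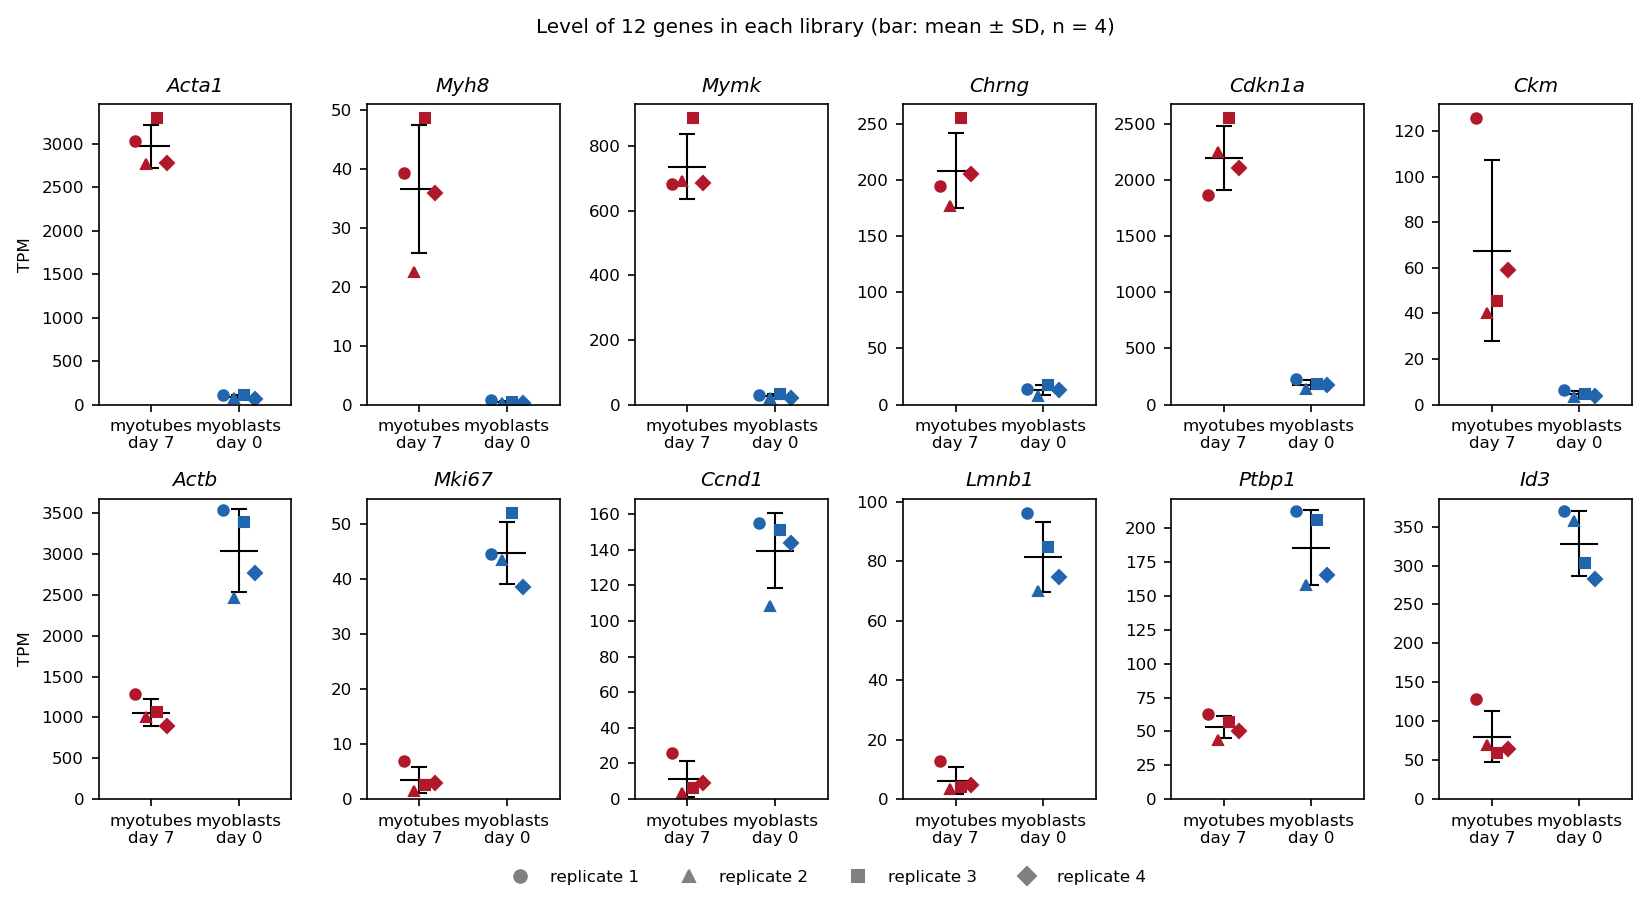
TPM of 12 genes in each library, with day 7 myotubes on the left and day 0 myoblasts on the right of each panel. Symbols mark the replicate number, and bars give the mean ± SD (n = 4). The groups do not overlap in any panel, and myotube replicate 1 is the highest myotube library for Ckm, Actb, Mki67, Ccnd1, Lmnb1, Ptbp1 and Id3.

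As a list, the transcription factors of myogenesis did not stand out from all genes. Of 43 tested, 15 were higher and 13 lower, which are 34.9% and 30.2%, near the background of 30.5% and 29.8%, and the median difference was 0.02. Single members moved far. Within the MyoD family, Myf5, a determination factor of dividing myoblasts, had 20.7, 7.49, 9.74 and 8.72 TPM in the myotube libraries, against 72.3, 28.6, 38.0 and 37.0 TPM in the myoblast libraries (3.77-fold lower, adjusted p = 1.65e-05). In both groups replicate 1 was the highest library, and the groups did not overlap. Myf6, the latest member of the family to appear in adult muscle, stayed below 1 TPM in every library (adjusted p = 0.883). The MEF2 genes rose unequally. Mef2c stood at 86.0 ± 13.2 TPM in myotubes against 2.68 ± 1.29 TPM in myoblasts, while Mef2a rose 2.60-fold and Mef2d 2.11-fold. Of the TEAD factors, which bind MCAT elements of muscle genes, Tead4 had 30.5, 36.4, 42.8 and 36.0 TPM in the myotube libraries, against 9.00, 5.65, 9.91 and 8.25 TPM in the myoblast libraries (adjusted p = 1.86e-11), with no overlap between groups. Tead3 rose 1.61-fold. Tbx15, a T-box factor of fast glycolytic muscle, rose 5.74-fold to 88.2 ± 8.07 TPM (adjusted p = 3.61e-14), and Sox11 rose 2.68-fold. Six4, a homeobox factor upstream of MyoD family genes, fell by 1.56-fold, and the E protein genes split, with Tcf3 2.34-fold lower and Tcf4 called higher at 64.0 ± 8.93 TPM in myotubes against 44.6 ± 10.0 TPM in myoblasts.

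Several inhibitors of differentiation fell. Id3, which sequesters E proteins, had 129, 69.6, 58.9 and 63.6 TPM in the myotube libraries, against 369.9, 357, 303 and 283 TPM in the myoblast libraries (4.09-fold lower, adjusted p = 2.74e-05). Myotube replicate 1 was the highest of its group by far, and the groups did not overlap. Id1 fell 2.33-fold and Id2 1.82-fold. Twist2, a basic helix-loop-helix repressor of MyoD and MEF2 activity, fell 7.28-fold to 3.82 ± 1.16 TPM (adjusted p = 1.06e-11). Of 25 factors tested on the list of inhibitors, 12 were lower and 5 higher. The higher ones included Bhlhe40 (3.42-fold), Zeb1 (2.08-fold), Klf5 (3.57-fold) and Hes6 (3.14-fold). Hes6 promotes differentiation by opposing Hes1, and Klf5 is also known to promote it, so these 2 rises are not those of inhibitors. In the Notch pathway, which keeps precursors undifferentiated, 10 of 23 genes were lower and 2 higher. The ligand gene Dll1 rose 4.13-fold, while the ligand gene Jag2 fell 3.63-fold, the target Hey1 fell 3.18-fold and the glycosyltransferase gene Lfng fell 6.55-fold.

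Both fusion proteins of muscle rose. Mymk, which encodes myomaker, had 683, 693, 888 and 686 TPM in the myotube libraries, against 28.7, 19.0, 32.6 and 20.1 TPM in the myoblast libraries (29.4-fold, adjusted p = 1.37e-16). Myotube replicate 3 was highest, the other 3 were nearly equal, and all stood far above the myoblasts. Mymx, which encodes myomerger, stood at 235 ± 16.7 TPM in myotubes against 7.59 ± 1.64 TPM in myoblasts (adjusted p = 1.37e-16). Tmem182, a membrane protein that restrains fusion in mice, also rose, to 112 ± 20.1 TPM (37.6-fold). On the fusion list as a whole 17 of 35 genes rose and 11 fell. Membrane repair and remodelling genes split by family member: dysferlin, Dysf, rose 3.67-fold and Bin1, which bends T-tubule membranes, rose 2.85-fold, whereas myoferlin, Myof, fell 1.95-fold and Ehd2 fell 2.27-fold. The muscle cadherin Cdh15 was 1.44-fold higher, and the GTPase gene Rac1 and the exchange factor gene Dock1, which remodel actin at the fusion site in flies and mice, were 1.68-fold and 1.99-fold lower.

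Genes of caveolae, T-tubules and triads, the membrane systems that carry the action potential to calcium stores, were mostly higher: 28 of 38 rose and 4 fell, with a median difference of 1.19. Caveolins changed their balance. Cav3, the muscle caveolin, had 115, 154, 130.1 and 128 TPM in the myotube libraries, against 0.262, 0.985, 0.910 and 0.225 TPM in the myoblast libraries (adjusted p = 5.34e-16), whereas Cav1 stood at 123 ± 19.5 TPM in myotubes against 178 ± 19.7 TPM in myoblasts and was not called (adjusted p = 0.0963), although a fit of the 8 libraries alone called it lower (adjusted p = 0.0124). Among the coat proteins, muscle Cavin4 rose 8.99-fold to 311 ± 30.3 TPM, and Cavin1 and Cavin3 fell 2.34-fold and 2.44-fold. The voltage sensor and release channel genes rose as well: Cacna1s, the L-type channel pore, stood at 23.3 ± 5.72 TPM in myotubes against 0.813 ± 0.319 TPM in myoblasts and Ryr1, the release channel, at 29.1 ± 9.73 TPM in myotubes against 1.94 ± 0.367 TPM in myoblasts. The accessory subunit Cacng1 also rose, to 241 ± 38.6 TPM in myotubes against 75.6 ± 17.4 TPM in myoblasts. Cacna2d1, another accessory subunit, was not called at 48.9 ± 6.32 TPM in myotubes against 49.8 ± 10.1 TPM in myoblasts (adjusted p = 0.704). Junctophilins, which hold the triad together, rose 4.99-fold (Jph1) and 2.89-fold (Jph2). The calcium pumps both rose, fast-type Atp2a1 19.7-fold and slow-type Atp2a2 1.71-fold, ending at nearly equal levels of 233 ± 39.9 and 216 ± 41.7 TPM in myotubes.

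Ion channel genes moved in both directions, with 17 of 31 higher and 7 lower, and 11 higher when log2(TPM + 0.1) was tested instead. Scn4a, the sodium channel of adult muscle, rose to 6.31 ± 1.84 TPM in myotubes against 0.182 ± 0.0778 TPM in myoblasts. The chloride channel Clcn1 of adult muscle was called lower and stayed below 1 TPM in every library (adjusted p = 0.000631). The mechanosensitive channel Piezo1 was 1.85-fold lower (adjusted p = 8.44e-05).

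Acetylcholine receptor subunits rose in the fetal combination. Chrng, the fetal gamma subunit, had 195, 177, 255 and 206 TPM in the myotube libraries, against 13.7, 7.43, 17.5 and 13.3 TPM in the myoblast libraries (adjusted p = 6.6e-12). Replicate 2 was the lowest library of each group and the groups did not overlap. Chrna1 rose 2.82-fold, Chrnd 4.71-fold and Chrnb1 1.99-fold. Chrne, the adult epsilon subunit that replaces gamma after innervation, was also called higher but at very low levels, 0.967 ± 0.324 TPM in myotubes against 0.00368 ± 0.00737 TPM in myoblasts (adjusted p = 4.87e-08). Of the genes that build the postsynaptic membrane, the adaptor gene Dok7 rose 4.67-fold, the agrin receptor gene Lrp4 2.41-fold and the scaffold gene Rapsn 1.60-fold. Musk, the kinase at its centre, was called higher with overlapping groups, at 18.9 ± 3.94 TPM in myotubes against 12.1 ± 3.74 TPM in myoblasts (adjusted p = 0.00455). Ncam1, the neural cell adhesion molecule of embryonic muscle, rose 7.93-fold to 469.9 ± 119 TPM (adjusted p = 1.54e-11). In all, 17 of 24 junction genes were higher and 3 lower.

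The dystrophin complex, which ties the cytoskeleton to the basement membrane, rose in some members and not in others. Of 35 genes of this complex and of costameres, 17 were higher and 8 lower (48.6% and 22.9%). Their summed level was 0.265% ± 0.0245% of TPM in myotubes, against 0.136% ± 0.0263% in myoblasts. Sgca rose 5.16-fold and Sgcb 2.01-fold, while Sgcd (9.14 ± 1.41 TPM in myotubes against 10.2 ± 1.19 TPM in myoblasts) and Sgce (35.5 ± 5.57 TPM in myotubes against 37.2 ± 5.21 TPM in myoblasts) were not called. Dmd, dystrophin, was called higher at the low level of 1.95 ± 0.707 TPM in myotubes against 0.0203 ± 0.0285 TPM in myoblasts, and its relative Utrn stood at 16.8 ± 4.35 TPM in myotubes against 16.7 ± 4.70 TPM in myoblasts (adjusted p = 0.573). Itgb1bp2, melusin, an integrin-binding protein of striated muscle, stood at 134 ± 15.9 TPM in myotubes against 1.71 ± 0.281 TPM in myoblasts (78.4-fold).

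Cdkn1a, which encodes p21, had 1868, 2244, 2553 and 2104 TPM in the myotube libraries, against 225, 135, 178 and 169.9 TPM in the myoblast libraries (12.4-fold, adjusted p = 5.16e-13). The groups were far apart, and the lowest myotube library, replicate 1, was well above every myoblast library. Other inhibitors did not rise with it: Cdkn1b, p27, stood at 45.0 ± 2.24 TPM in myotubes against 61.2 ± 6.74 TPM in myoblasts and Cdkn2d, p19, at 27.0 ± 5.51 TPM in myotubes against 49.2 ± 6.02 TPM in myoblasts, both called lower, and Cdkn2c, p18, at 49.0 ± 6.59 TPM in myotubes against 49.9 ± 2.44 TPM in myoblasts (adjusted p = 0.736). The growth arrest genes Gadd45a (9.12-fold), Gadd45b (4.22-fold) and Gadd45g (2.65-fold) rose together. Rb1, the retinoblastoma gene, rose 1.72-fold, and Rbl1, a relative known from dividing cells, fell 4.88-fold. Trp53 itself fell 2.24-fold, whereas its targets Ccng1 and Mdm2 rose 2.03-fold and 1.88-fold. D-type cyclins diverged. Ccnd1 had 25.9, 3.53, 6.29 and 9.03 TPM in the myotube libraries, against 155, 108, 151 and 144 TPM in the myoblast libraries (12.5-fold lower, 22.2-fold without myotube replicate 1, adjusted p = 2.71e-07), with myotube replicate 1 well above the other 3 and all 4 below the myoblasts. Ccnd3, the D cyclin kept in differentiated muscle, rose 1.71-fold to 239.8 ± 45.7 TPM (adjusted p = 1.28e-05). In the list of exit genes, 14 of 29 were higher and 7 lower.

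Mitosis and DNA replication genes fell without exception in direction among those called. All 67 of 67 mitosis genes and 48 of 50 DNA replication genes were lower, against a background of 29.8%. Summed mitosis genes took 0.0694% ± 0.0302% of TPM in myotubes, against 0.459% ± 0.0203% in myoblasts. Myotube libraries ranged from 0.0444% to 0.112%, and replicate 1 held the highest value. Mki67 had 6.95, 1.40, 2.53 and 2.85 TPM in the myotube libraries, against 44.6, 43.5, 52.0 and 38.5 TPM in the myoblast libraries (13.0-fold lower, 19.7-fold without myotube replicate 1, adjusted p = 5.41e-06), and myotube replicate 1 was again the highest of its group. Cdk1, the mitotic kinase, remained at 55.1 ± 22.8 TPM in myotubes against 375 ± 11.8 TPM in myoblasts, and Birc5, survivin, at 29.1 ± 17.2 TPM in myotubes against 222 ± 18.7 TPM in myoblasts. Within replication, the helicase subunit Mcm5 fell 10.4-fold (15.9-fold without myotube replicate 1) and Mcm3 fell 9.99-fold (15.5-fold without myotube replicate 1), whereas the clamp Pcna fell 2.82-fold. The 2 genes not called were Rfc3, a subunit of the clamp loader, at 51.3 ± 10.2 TPM in myotubes against 52.9 ± 10.5 TPM in myoblasts, and Gins4, of the replicative helicase, at 30.1 ± 1.94 TPM in myotubes against 38.8 ± 2.43 TPM in myoblasts. Gins4 was called lower when log2(TPM + 0.1) was tested (adjusted p = 0.0072) and without myoblast replicate 3 (adjusted p = 0.0493).

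Genes that act just before and beside replication fell with it. Among 27 G1 and S phase regulators, 23 were lower and 3 higher, and the higher ones were Ccnd3, E2f2 (1.74-fold) and the repressor E2f6 (1.25-fold). E2f7 fell 11.4-fold (17.3-fold without myotube replicate 1) and E2f1 2.32-fold. Nucleotide synthesis had 29 of 39 lower and 3 higher. The thymidine kinase Tk1 fell 7.80-fold (12.0-fold without myotube replicate 1) and thymidylate synthase, Tyms, 4.15-fold, while Rrm2, the reductase subunit of dividing cells, was still at 147 ± 10.5 TPM (2.55-fold lower). DNA repair had 43 of 52 lower and 2 higher. Brca1, of homologous recombination, fell 9.35-fold, and Exo1, a nuclease of DNA repair, fell 13.1-fold (27.5-fold without myotube replicate 1). The excision repair genes Xpc (1.36-fold) and Xpa (1.32-fold) rose.

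Short motifs known to bind regulators of muscle and cell cycle genes were counted in the promoters of these members, and 5 promoters are shown, of genes at both ends of the range, because they hold the motifs counted. Sequences are from RefSeq (GRCm38.p6), 5′ to 3′ on the gene's strand, and each is the 250 bases just before the annotated start. Capitals in the first pair, genes that rose, mark CAGCTG, a form of the E-box CANNTG that MyoD family factors bind, and CTA followed by any 4 bases and TAG, a core of MEF2 sites. Myoz2 encodes a Z-disc protein (chr3:123034988-123035237, minus strand) and stood at 87.5 ± 9.71 TPM in myotubes against 0.817 ± 0.319 TPM in myoblasts, and Klhl41 is at chr2:69669870-69670119, plus strand. In the next pair, genes that fell, capitals mark TTTGAA, a core of the cell cycle homology region bound by the DREAM complex, and CCAAT, bound by NF-Y: Cdk1 (chr10:69352913-69353162, minus strand) and Mki67 (chr7:135716380-135716629, minus strand). In Mcm5 (chr8:75109259-75109508, plus strand) they mark TTTNNCGC, a core of E2F sites, and CCAAT. Letters were matched on both strands, so ATTGG also appears in capitals, and the pair of TTTNNCGC matches in Mcm5 overlap on opposite strands.
Myoz2: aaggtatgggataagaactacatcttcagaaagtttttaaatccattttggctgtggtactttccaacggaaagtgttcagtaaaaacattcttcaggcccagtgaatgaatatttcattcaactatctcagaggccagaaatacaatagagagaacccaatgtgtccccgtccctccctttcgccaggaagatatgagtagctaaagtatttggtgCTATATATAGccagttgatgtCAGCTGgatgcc
Klhl41: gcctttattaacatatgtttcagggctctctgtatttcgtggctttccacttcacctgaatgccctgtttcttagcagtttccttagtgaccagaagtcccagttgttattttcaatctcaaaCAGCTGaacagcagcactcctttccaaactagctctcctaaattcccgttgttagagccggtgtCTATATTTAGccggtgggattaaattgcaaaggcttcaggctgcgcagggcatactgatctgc
Cdk1: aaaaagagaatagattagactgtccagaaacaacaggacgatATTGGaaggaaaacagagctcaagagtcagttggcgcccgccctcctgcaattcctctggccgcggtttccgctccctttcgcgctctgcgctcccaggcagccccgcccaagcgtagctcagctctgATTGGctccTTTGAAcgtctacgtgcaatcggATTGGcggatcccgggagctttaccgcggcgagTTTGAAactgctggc
Mki67: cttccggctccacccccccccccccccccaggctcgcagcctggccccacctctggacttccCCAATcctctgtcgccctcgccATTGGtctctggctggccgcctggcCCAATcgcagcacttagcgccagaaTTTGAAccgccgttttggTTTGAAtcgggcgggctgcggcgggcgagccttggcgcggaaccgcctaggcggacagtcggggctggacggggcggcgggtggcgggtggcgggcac
Mcm5: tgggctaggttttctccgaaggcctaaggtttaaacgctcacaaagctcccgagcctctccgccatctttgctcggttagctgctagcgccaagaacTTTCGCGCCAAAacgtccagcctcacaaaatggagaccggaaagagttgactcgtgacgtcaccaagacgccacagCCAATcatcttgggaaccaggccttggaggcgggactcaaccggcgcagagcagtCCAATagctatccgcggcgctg

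Over all 32851 RefSeq promoter windows of 300 bases (250 before to 50 after the start), CAGCTG was present in 16.3%. It was present in 35.8% of the 53 windows of sarcomere genes called higher, in 14.3% of the 63 windows of mitosis genes called lower and in 13% of the 46 windows of replication genes called lower. The general E-box CANNTG, which includes CAGCTG, was in 79.2% of sarcomere, 57.1% of mitosis and 69.6% of replication windows, with 72.3% over all. The MEF2 core was in 17% of sarcomere windows, 3.17% of mitosis windows and none of the replication windows, with 3.69% over all. TTTGAA was in 7.55% of sarcomere, 63.5% of mitosis and 21.7% of replication windows, with 17.9% over all. CCAAT was in 34% of sarcomere, 73% of mitosis and 52.2% of replication windows, with 37.4% over all. TTTNNCGC was in 5.66% of sarcomere, 20.6% of mitosis and 32.6% of replication windows, with 5.17% over all, and TATAAA, the TATA box, was in 26.4% of sarcomere, 6.35% of mitosis and 6.52% of replication windows, with 13.6% over all. Symbols were matched for 45 of 57 sarcomere, 57 of 67 mitosis and 40 of 48 replication genes, some with several windows. A match is a description of these letters and not a bound site, and no test was made of the shares.

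Histone genes did not follow DNA replication as a group. Messages of the histone clusters mostly end in a stem-loop without a poly(A) tail and peak in S phase, whereas these libraries were made from polyadenylated RNA. Of 66 listed cluster genes 34 passed the filter, and the rest were too low to test. Of those tested, 22 were higher, 6 lower and 6 not called. The filter asks for 4 of the 24 libraries, of which only 4 are of myoblasts. A gene high in myoblasts alone therefore passes less easily, and the counts lean toward rises. Without the filter, of 37 cluster genes with a mean of at least 1 TPM in either group, 22 had the higher mean in myotubes and 15 in myoblasts. Hist1h2bc, an H2B gene, had 302, 463, 408 and 417 TPM in the myotube libraries, against 34.8, 52.3, 32.7 and 24.1 TPM in the myoblast libraries (11.0-fold, adjusted p = 8.74e-13). The groups were far apart, and replicate 1 was the lowest myotube library. The linker histone gene Hist1h1c had 284, 369.5, 353 and 319.9 TPM in the myotube libraries, against 48.1, 61.8, 43.5 and 38.0 TPM in the myoblast libraries (6.93-fold, adjusted p = 1.65e-11). Other rises were Hist1h2bk (5.60-fold) and Hist1h4i (4.24-fold). The genes that fell were low in both groups. Hist1h2ae, with the highest myoblast level among them, stood at 1.17 ± 0.761 TPM in myotubes against 6.70 ± 0.790 TPM in myoblasts, and Hist1h3h at 0.124 ± 0.173 TPM in myotubes against 4.52 ± 0.726 TPM in myoblasts. Slbp, the protein that binds the stem-loop, fell 3.77-fold to 17.2 ± 3.65 TPM (adjusted p = 2.29e-11). Many of these genes have near-identical coding sequences, so reads may be split between copies and the values of single genes are uncertain. Of 20 genes of histone variants, other linker histones and HMG proteins, 16 were lower and 2 higher. H2afx fell 5.30-fold and Hmgb2 7.14-fold, whereas the replacement histone H3f3a rose 1.46-fold and its sister gene H3f3b fell 1.80-fold.

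**Figure D3:**
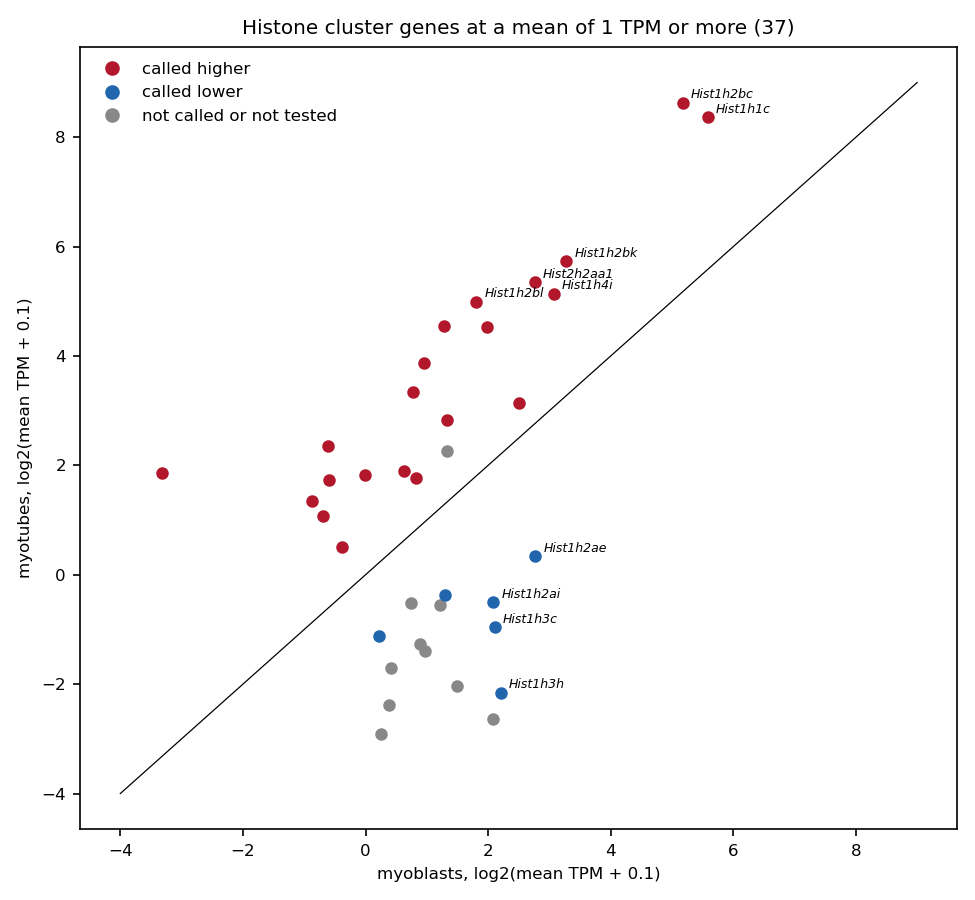
Mean level in day 7 myotubes (vertical axis) against day 0 myoblasts (horizontal axis), both as log2 of mean TPM + 0.1, for the 37 histone cluster genes with a mean of at least 1 TPM in either group. Red marks genes called higher, blue genes called lower and grey genes not called or not tested. The diagonal marks equal levels: 22 genes lie above it and 15 below it, and every gene with a mean above 10 TPM in either group lies above it.

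The nuclear envelope and the transport machinery also changed. Lmnb1, lamin B1, had 12.8, 3.51, 3.93 and 4.64 TPM in the myotube libraries, against 96.4, 70.0, 84.9 and 74.8 TPM in the myoblast libraries (13.1-fold lower, 20.2-fold without myotube replicate 1, adjusted p = 4.33e-10), and the groups were far apart in all libraries. Lmna, the lamin of differentiated cells, was also lower, at 393 ± 43.7 TPM in myotubes against 786 ± 48.6 TPM in myoblasts (adjusted p = 3.58e-07), and the lamin B receptor Lbr fell 2.71-fold and Tmpo, a lamina-associated protein, 5.21-fold. Syne1, which encodes nesprin-1 and anchors myonuclei, rose 2.34-fold, as did Akap6, a nuclear envelope scaffold of muscle (3.49-fold), whereas Syne2 fell 5.35-fold. In nuclear transport, 39 of 49 genes were lower and 2 higher. The nuclear pore genes Ndc1, Nup160 and Nup107 fell 3.75-fold, 3.25-fold and 3.18-fold. Kpna2, an importin, fell 5.12-fold, and Kpna1 was one of the 2 genes that rose (1.49-fold).

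Chromatin regulators were more often lower, with 34 of 58 lower and 7 higher. Uhrf1, which recruits the maintenance DNA methyltransferase, fell 15.9-fold to 4.52 ± 3.68 TPM (26.5-fold without myotube replicate 1), Dnmt1 itself 4.58-fold and the helicase gene Hells 11.7-fold. The Polycomb methyltransferase Ezh2 fell 2.94-fold and its relative Ezh1 rose 1.63-fold, and in myotubes they stood at 24.6 ± 4.08 TPM (Ezh1) and 18.6 ± 3.46 TPM (Ezh2). Smarcd3, the muscle subunit of the SWI/SNF remodeller, was not called at 53.3 ± 2.07 TPM in myotubes against 54.8 ± 7.17 TPM in myoblasts (adjusted p = 0.588), while its general counterpart Smarcd1 fell 2.13-fold. The muscle methyltransferase Smyd1 rose 8.75-fold.

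Most regulators of splicing fell, while a few muscle factors rose. Of 44 tested, 29 were lower and 6 higher. Ptbp1, a repressor of muscle and neuronal exons, had 63.0, 43.4, 56.6 and 50.1 TPM in the myotube libraries, against 213, 158, 206 and 166 TPM in the myoblast libraries (3.49-fold lower, adjusted p = 6.78e-12), without overlap. Hnrnpa1 fell 3.91-fold, Hnrnpd 3.38-fold and Srsf1 2.38-fold. Rbm24, which activates muscle exons, rose 9.50-fold to 68.7 ± 12.0 TPM, and Rbm38 rose 4.90-fold. Rbfox1, which also acts on muscle exons, was called higher at the low level of 2.47 ± 0.381 TPM in myotubes against 0.0305 ± 0.0131 TPM in myoblasts. Srpk3, a muscle kinase of splicing factors, reached 12.7 ± 2.18 TPM (24.5-fold). Mbnl1, which directs the change from fetal to adult splicing, was not called, at 138 ± 29.9 TPM in myotubes against 176 ± 17.9 TPM in myoblasts (adjusted p = 0.0994), and Mbnl3, a form of precursor cells, fell 4.34-fold.

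**Figure D4:**
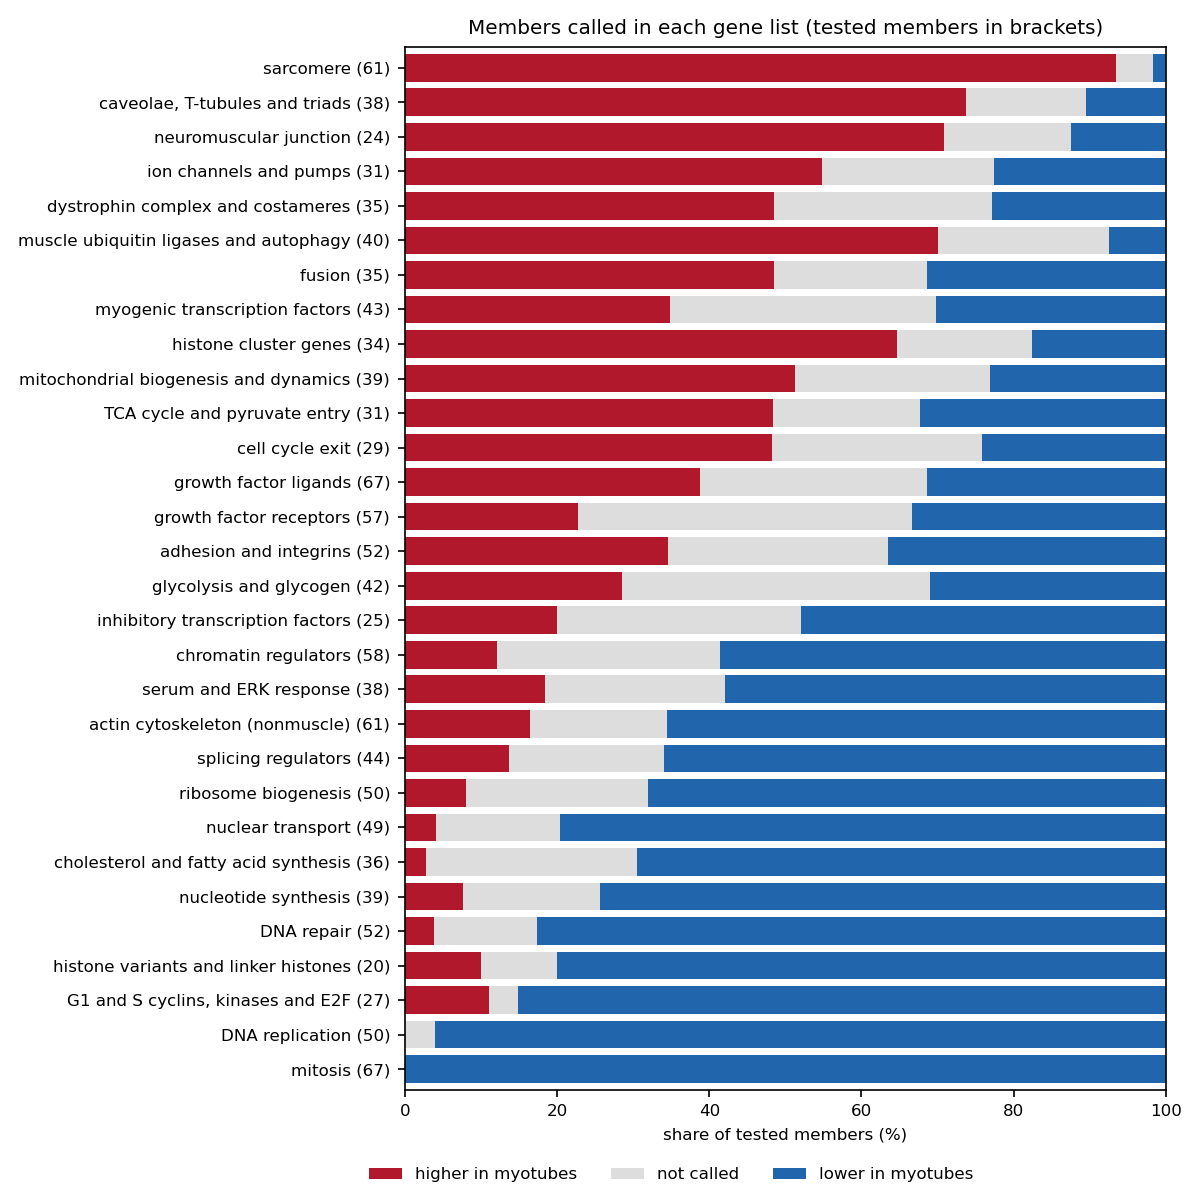
Share of the tested members of 30 gene lists (horizontal axis, %) that were called higher, not called or called lower in day 7 myotubes against day 0 myoblasts, with the number of tested members in brackets. Sarcomere genes at the top were higher in 57 of 61, mitosis genes at the bottom lower in 67 of 67, and most lists between them hold genes of both directions. Over all genes tested 30.5% were higher and 29.8% lower.

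Exchange of isoforms was examined in 54 pairs of a gene assigned as the muscle member and a general counterpart. Some assigned members, such as Ptbp2, Tubb2a, Ezh1, Hdac5, Lmna and Ccnd3, are not specific to muscle. Some general counterparts, such as Tpm3 and Fhl3, are also known from muscle. All these pairs are included in the counts below. In 30 pairs the muscle gene rose and the general gene fell, in 6 the muscle gene rose and the general gene was not called, in 7 both rose and in 5 both fell. The share of the muscle member in the summed TPM of a pair was higher in every myotube library than in every myoblast library for 48 pairs, and lower for 1. A share can rise while both genes fall, as for Ptbp2 with Ptbp1 and Lmna with Lmnb1, where both were called lower. No such share was computed over other pairs of genes, and 51.2% of single genes tested already did not overlap. The pairs were also chosen with earlier results of these data known, so this count has no background of its own. Among the 53 pairs with both genes tested, the muscle member held more than 50% of the sum in 26 pairs in myotubes and in 8 pairs in myoblasts. Acta1 made 73.8% ± 2.54% of the sum with Actb in myotubes, against 2.79% ± 0.442% in myoblasts. Actb, cytoplasmic beta-actin, itself had 1283, 1001, 1062 and 894 TPM in the myotube libraries, against 3542, 2467, 3391 and 2765 TPM in the myoblast libraries (2.87-fold lower, adjusted p = 1.02e-07). For glycogen phosphorylase the muscle form Pygm had 75.0% ± 1.54% of the sum with the brain form Pygb in myotubes, against 3.74% ± 0.536% in myoblasts. Enolase Eno3 had 51.8% ± 0.615% with Eno1 in myotubes, against 30.4% ± 0.509% in myoblasts, and the kinase gene Camk2a had 64.6% ± 4.70% with Camk2d in myotubes, against 2.53% ± 0.782% in myoblasts.

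Some exchanges stayed small. The muscle subunits of cytochrome oxidase Cox6a2, Cox7a1 and Cox8b all rose but remained minor members of their pairs, and Cox6a2 ended at 13.4% ± 1.17% of the sum with Cox6a1 in myotubes, against 0.0821% ± 0.0325% in myoblasts. Slc2a4, the insulin-regulated glucose transporter of adult muscle, was 1.31% ± 0.264% of its pair with Slc2a1 in myotubes, against 0.727% ± 0.323% in myoblasts, and was not called. Eef1a2, the elongation factor of adult muscle, was called higher (adjusted p = 0.00544) but not when log2(TPM + 1) was tested (adjusted p = 0.501), and its share with Eef1a1 was 0.00116% ± 0.000643% of the sum in myotubes, against 3.25e-05% ± 6.49e-05% in myoblasts. Rpl3l, a ribosomal protein of striated muscle, was not called (adjusted p = 0.0767), although its share with Rpl3 was 0.0553% ± 0.00917% of the sum in myotubes, against 0.00179% ± 0.00358% in myoblasts. The shares of both were higher in every myotube library than in every myoblast library, while both genes stayed below 1 TPM in all 8 libraries. Tln2, the talin of striated muscle, was the member whose share was lower in every myotube library than in every myoblast library (11.6% ± 0.504% in myotubes against 14.0% ± 1.81% in myoblasts). Ckm, the muscle creatine kinase, had 126, 40.3, 45.2 and 59.1 TPM in the myotube libraries, against 6.57, 3.11, 4.51 and 3.91 TPM in the myoblast libraries (14.9-fold, adjusted p = 0.000337). Myotube replicate 1 was more than 2 times the next library, and without it the difference was 1.94 on the log2 scale (adjusted p = 0.00196). The brain form Ckb was the more abundant of the pair in myotube replicates 2, 3 and 4 and in all myoblast libraries, at 96.3 ± 8.83 TPM in myotubes against 64.4 ± 15.9 TPM in myoblasts, while in myotube replicate 1 Ckm held 55.6% of the sum.

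**Figure D5:**
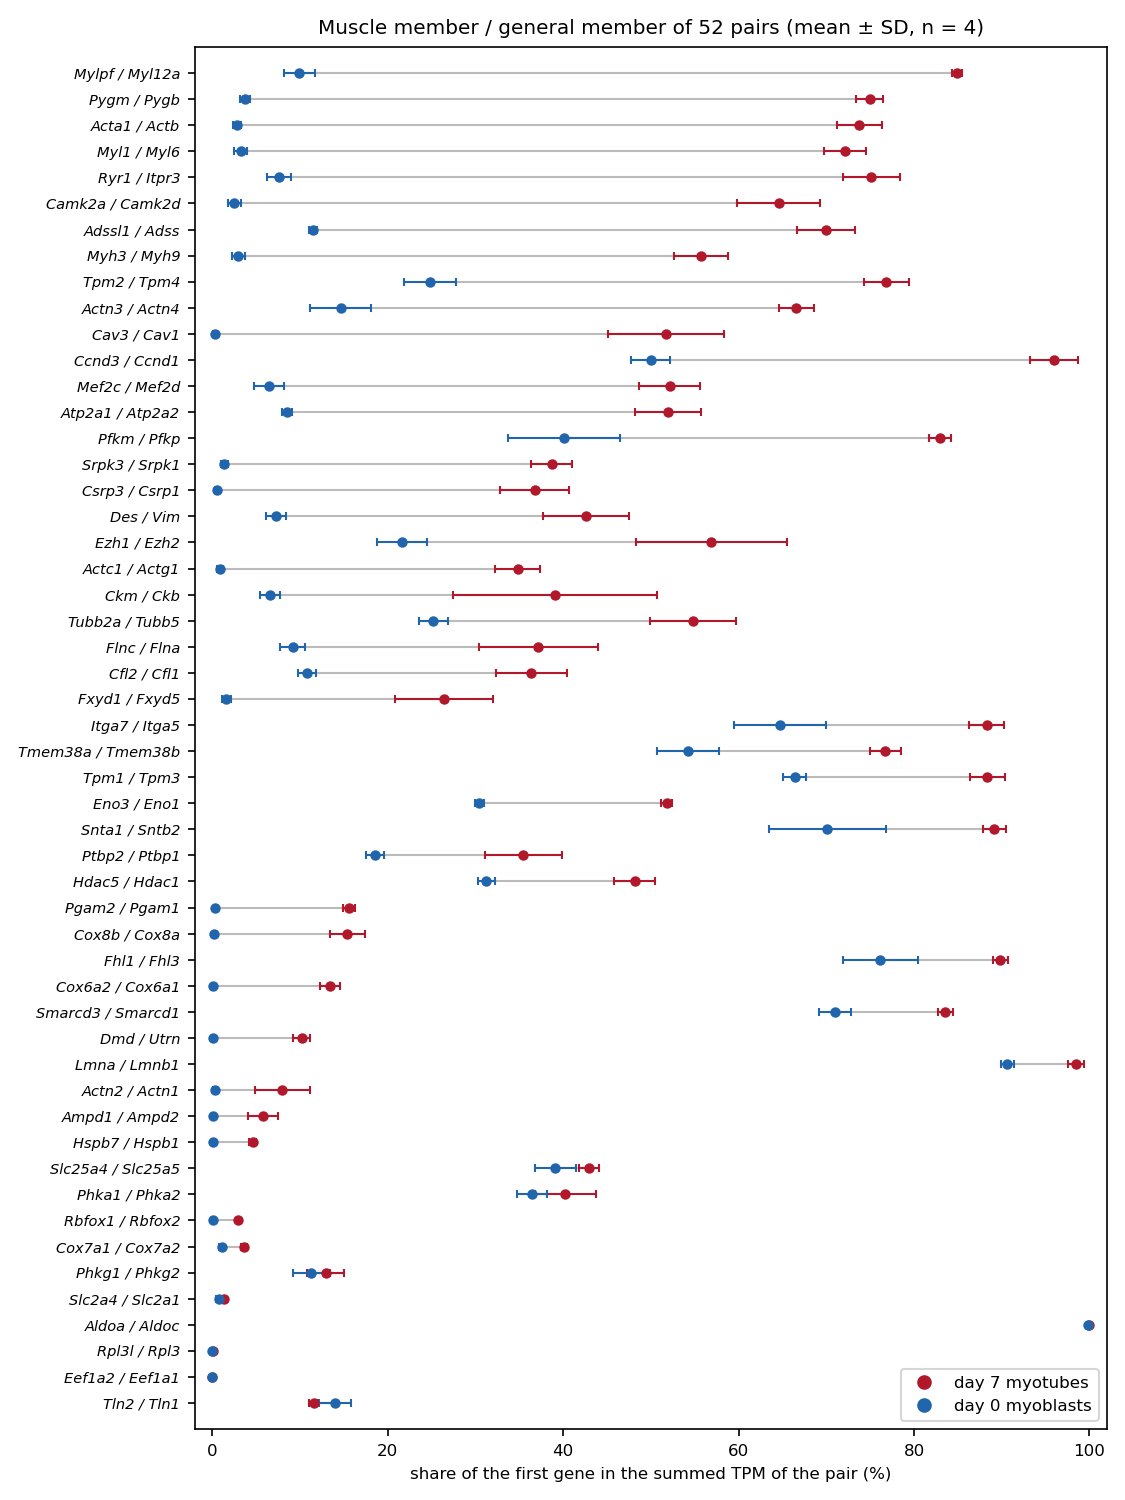
Share of the gene assigned as the muscle member in the summed TPM of each pair (horizontal axis, %), as mean ± SD of 4 libraries, in day 7 myotubes and day 0 myoblasts. Of the 54 pairs, 52 are plotted, ordered by the difference between groups, from Mylpf with Myl12a at the top to Tln2 with Tln1 at the bottom.

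The actin cytoskeleton of dividing cells fell along with these general isoforms. Of 61 genes tested, 40 were lower and 10 higher. Tagln2, an actin-bundling protein, fell 5.40-fold, Vim, the intermediate filament of mesenchymal cells, 3.44-fold, and the formin gene Diaph3 9.88-fold. Of the thymosins, which sequester actin monomers, Tmsb4x and Tmsb10 rose. Tmsb4x stood at 6272 ± 1511 TPM in myotubes against 2587 ± 323 TPM in myoblasts and Tmsb10 at 4695 ± 345 TPM in myotubes against 2572 ± 249 TPM in myoblasts. Smooth muscle actin, Acta2, was not called at 1701 ± 362 TPM in myotubes against 1554 ± 215 TPM in myoblasts (adjusted p = 0.431). Tubulins were mixed, with 10 of 34 microtubule genes higher and 17 lower. Tubb6 rose 2.02-fold and Tubb5 fell 3.79-fold, while the muscle RING-finger proteins Trim54 and Trim55, which bind microtubules, rose 15.5-fold and 5.18-fold and the catastrophe factor Stmn1 fell 5.61-fold.

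Among 52 adhesion genes tested, 18 were higher and 19 lower (34.6% and 36.5%), near the background of 30.5% and 29.8%. The genes named here are single members of that list. Itga7, the laminin-binding integrin of muscle, rose 2.85-fold to 454 ± 83.9 TPM, and Itgb5 and Itga11 rose 2.18-fold and 2.98-fold. Itga3 fell 3.34-fold, Itgav 1.93-fold, Vcam1 3.38-fold, Alcam 8.71-fold and the hyaluronan receptor Cd44 4.14-fold. In the basement membrane, 5 of 26 genes were higher and 8 lower (19.2% and 30.8%), so the share lower was near the background. The summed level of this list was higher in myotubes, at 0.565% ± 0.0595% of TPM against 0.310% ± 0.0358% in myoblasts. Single members fell. Nid1, nidogen-1, fell 5.34-fold and the laminin chain Lamc1 1.99-fold.

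Summed genes of the tricarboxylic acid cycle and pyruvate entry took 0.369% ± 0.00443% of TPM in myotubes, against 0.366% ± 0.0173% in myoblasts. Of 31 genes, 15 were higher and 10 lower. Pyruvate carboxylase, Pcx, rose 3.18-fold and the pyruvate carrier subunits Mpc1 and Mpc2 rose 1.60-fold and 1.52-fold, whereas citrate synthase, Cs, fell 2.05-fold and Idh2 1.78-fold. Among 39 genes of mitochondrial biogenesis and dynamics, 20 were higher and 9 lower. Bnip3 and Pink1, both known from mitophagy, rose 2.82-fold and 2.56-fold, and Tfam, which packages mitochondrial DNA, was not called at 51.2 ± 7.34 TPM in myotubes against 54.4 ± 9.02 TPM in myoblasts (adjusted p = 0.997). Glycolysis and glycogen genes had 12 of 42 higher and 13 lower (28.6% and 31.0%), near the background of 30.5% and 29.8%. Hexokinase 1 and the pyruvate kinase Pkm fell (2.37-fold and 1.72-fold), and glycogen synthase, Gys1, rose 2.08-fold. In the phosphagen, purine cycle and oxygen list, 8 of 18 were higher and 5 lower, and Mb, myoglobin, stood at 228 ± 26.6 TPM in myotubes against 6.12 ± 1.50 TPM in myoblasts (37.2-fold).

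Synthesis of lipids and ribosomes was lower in myotubes at the level of messages. Of 36 genes of cholesterol and fatty acid synthesis, 25 were lower and 1 higher. The elongase gene Elovl6 fell 10.8-fold and Fasn 2.90-fold, and the sterol isomerase gene Ebp was the exception, at 155, 201, 207 and 217 TPM in the myotube libraries, against 53.8, 73.6, 88.8 and 78.0 TPM in the myoblast libraries (adjusted p = 3.15e-06), with no overlap. Ribosome biogenesis had 34 of 50 lower and 4 higher, most by modest amounts, with nucleophosmin, Npm1, 2.54-fold lower and nucleolin, Ncl, 2.31-fold. Among aminoacyl-tRNA synthetase genes, 6 of 23 were lower, led by the valyl enzyme Vars (2.73-fold), 1 was higher and 16 were not called. The share lower, 26.1%, was near the background of 29.8%, so this list did not stand out as falling. In contrast, 28 of 40 muscle ubiquitin ligase and autophagy genes were higher and 3 lower. Trim72, which seals membrane wounds, rose 64.3-fold to 175 ± 16.3 TPM, and Asb5 4.97-fold to 912 ± 160.5 TPM.

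Of 38 genes that respond to serum and ERK signalling, 22 fell and 7 rose, in a comparison that includes the change of serum. Fosl1 fell 11.3-fold, the urokinase receptor Plaur 12.1-fold, Etv4 4.61-fold and the ERK phosphatases Dusp6 and Dusp4 2.39-fold and 2.86-fold. Spry1, an inhibitor of ERK signalling, rose 8.52-fold to 29.4 ± 4.66 TPM (adjusted p = 1.44e-13). Of 28 YAP and TEAD targets, 7 were higher and 10 lower (25.0% and 35.7%, near the background). The stretch-responsive muscle ankyrin repeat genes rose: Ankrd1 2.02-fold, Ankrd2 161-fold and Ankrd23 42.7-fold.

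Of 67 genes of secreted ligands tested, 26 were higher and 21 lower (38.8% and 31.3%), shares not far from those over all genes. Igf1, which drives muscle growth, had 34.3, 65.4, 59.8 and 72.8 TPM in the myotube libraries, against 9.63, 8.26, 21.4 and 17.2 TPM in the myoblast libraries (4.11-fold, adjusted p = 0.00194). Myotube replicate 1 was the lowest of its group but above all myoblast libraries. Fgf21, a stress hormone that muscle can secrete, rose 11.9-fold, Inhbb, an activin subunit, 5.39-fold, Wnt9a 4.45-fold and Tgfb2 3.06-fold. Fgfbp1, a carrier of FGFs, stood at 84.2 ± 23.2 TPM in myotubes against 0.625 ± 0.253 TPM in myoblasts. Hgf, which activates satellite cells, fell 8.23-fold (adjusted p = 2.22e-06), and its receptor gene Met fell 3.84-fold. Fgf7 fell 7.12-fold, Areg 7.32-fold, and the chemokines Ccl2 and Cxcl5 9.39-fold and 4.73-fold. Among 57 receptors, 13 were higher and 19 lower (22.8% and 33.3%, near the background). Erbb3, a neuregulin receptor, rose 7.77-fold and Tgfbr2 2.45-fold. Ngfr, the p75 neurotrophin receptor, stood at 0.0200 ± 0.0145 TPM in myotubes against 2.71 ± 1.38 TPM in myoblasts (adjusted p = 1.23e-10).

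Apoptosis and survival genes had 17 of 41 higher and 18 lower. The small heat shock protein genes Hspb2 and Hspb8 rose 8.04-fold and 4.23-fold, and so did Casp12 (5.28-fold) and Bcl2l1 (1.75-fold), whereas the caspase gene Casp9 fell 1.84-fold. Among imprinted and noncoding RNA genes, 7 of 27 were higher and 6 lower (25.9% and 22.2%, near the background). H19 rose 2.16-fold to 1833 ± 466 TPM, and the nuclear RNA Malat1 rose 2.96-fold, while Peg10 fell 7.91-fold and Peg3 3.13-fold. Igf2, the imprinted neighbour of H19, had 65.8, 24.0, 23.3 and 19.1 TPM in the myotube libraries, against 17.1, 7.95, 10.7 and 6.11 TPM in the myoblast libraries (adjusted p = 0.0237). Its difference of 1.07 on the log2 scale became 0.79 without myotube replicate 1 (adjusted p = 0.1) and 0.95 without myoblast replicate 4 (adjusted p = 0.0665), and it was not called when no filter was applied (adjusted p = 0.0502). Interferon and antigen presentation genes had 7 of 33 higher and 8 lower (21.2% and 24.2%, near the background).

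Some of the steepest changes were in genes outside the lists. Genes were ranked by the log2 ratio of mean TPM + 0.1 among those called, with a mean of at least 20 TPM in the higher group and no overlap. The 15 steepest rises included Col23a1, a transmembrane collagen, with 2.17, 36.9, 53.0 and 27.7 TPM in the myotube libraries, against 0.0356, 0.0454, 0.0639 and 0.0403 TPM in the myoblast libraries (adjusted p = 5.36e-05). Myotube replicate 1 was far below the other myotube libraries, and all 4 exceeded the myoblasts. Cxcl14, a chemokine, had 24.2, 75.3, 66.1 and 71.2 TPM in the myotube libraries, against 0.423, 0.285, 0.464 and 0.234 TPM in the myoblast libraries (adjusted p = 6.8e-08), and the predicted gene Gm8300 11.2, 116, 100.0 and 114 TPM in the myotube libraries, against 0.365, 0.857, 0.645 and 0.639 TPM in the myoblast libraries (adjusted p = 1.58e-05). Replicate 1 was again the lowest myotube library in both, without overlap with the myoblasts. The pancreatic protease gene Ctrb1 stood at 118 ± 48.8 TPM in myotubes against 0.563 ± 0.123 TPM in myoblasts, the cortisone reductase gene Hsd11b1 at 72.8 ± 23.7 TPM in myotubes against 0.495 ± 0.195 TPM in myoblasts and R3hdml at 110.5 ± 21.7 TPM in myotubes against 1.17 ± 0.438 TPM in myoblasts. Casq1, Myl4, Cav3, Cox6a2, Myoz2, Ankrd2 and Fgfbp1 were also among the 15, as were Tceal7 and Hectd2os.

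The 15 steepest falls follow. Prl2c2, a proliferin hormone gene, had 0.301, 1.34, 1.26 and 1.48 TPM in the myotube libraries, against 256, 182, 269 and 282 TPM in the myoblast libraries (adjusted p = 1.7e-11), and replicate 1 was the lowest myotube library. Prl2c2 and Prl2c3 are near-identical, as are Hmga1 and Hmga1b and Fabp5 and Gm6166, and the split of reads within each pair is uncertain. Hmga2, a chromatin protein of embryonic and precursor cells, stood at 4.04 ± 1.44 TPM in myotubes against 97.9 ± 30.2 TPM in myoblasts (24.2-fold lower, adjusted p = 1.26e-08). The neurofilament gene Nefl had 1.29, 0.165, 0.492 and 0.414 TPM in the myotube libraries, against 116, 31.7, 90.1 and 105 TPM in the myoblast libraries (145-fold lower, 240.3-fold without myotube replicate 1, adjusted p = 1.93e-11), with myoblast replicate 2 the lowest of its group and no overlap. Nefm stood at 1.02 ± 0.367 TPM in myotubes against 20.4 ± 8.62 TPM in myoblasts, and the cornified envelope gene Sprr1a at 0.481 ± 0.485 TPM in myotubes against 38.8 ± 11.0 TPM in myoblasts, with the highest myotube library, replicate 1, well above the other 3. The water channel Aqp1 stood at 8.79 ± 1.92 TPM in myotubes against 143 ± 12.7 TPM in myoblasts, and the growth factor Ptn at 4.67 ± 4.85 TPM in myotubes against 64.7 ± 12.1 TPM in myoblasts (13.8-fold lower, 28.6-fold without myotube replicate 1). Osbp2, Blnk, Hmga1, Uhrf1 and Fabp5 completed the list with the copies named above.

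Markers of other states and cell types were read beside these results. All 12 of 12 myotube markers were higher and all 7 of 7 proliferation markers lower. Many of both sets, such as Acta1, Myh3, Mki67 and Cdk1, were already described above, so these counts add no separate support. Of the markers of myoblasts and reserve cells, the mononucleated cells that do not fuse, 5 of 10 were lower and 2 higher. Their summed level ranged from 0.0737% to 0.0940% of TPM in myotubes and from 0.0808% to 0.102% in myoblasts, and Cd34 stood at 18.0 ± 6.70 TPM in myotubes against 101 ± 23.1 TPM in myoblasts. Calcr, a marker of quiescent satellite cells, was listed at 0 in all 8 libraries, and Hes1 was not called at 52.4 ± 3.40 TPM in myotubes against 51.0 ± 7.57 TPM in myoblasts. Fibroblast and tendon markers had 6 of 10 higher and 0 lower, with sums of 0.238% to 0.332% in myotubes against 0.102% to 0.148% in myoblasts. Mfap5, a microfibril protein, had 147, 485, 498 and 502 TPM in the myotube libraries, against 6.91, 9.20, 17.4 and 12.2 TPM in the myoblast libraries (35.8-fold, adjusted p = 1.24e-08), with replicate 1 the lowest myotube library and no overlap. Of the other members, the matrix proteoglycan gene Dcn and the tendon factor Scx rose 5.07-fold and 1.84-fold, Pdgfra was not called at 3.95 ± 0.751 TPM in myotubes against 4.76 ± 1.11 TPM in myoblasts, and Thy1 and Tnmd stayed below 1 TPM in every library. The part of cells that did not fuse in any of the results was not tested.

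Neuronal markers had 6 of 8 tested lower and 1 higher, and 6 of 13 listed stayed below 1 TPM in all 8 libraries. Adipocyte markers had 2 of 5 lower, with Pparg 4.47-fold lower, and chondrocyte markers 1 of 4, Sox9 (3.27-fold lower). Osteoblast markers had 4 of 7 lower and 1 higher, with Spp1 at 1338 ± 554 TPM in myotubes against 3104 ± 419 TPM in myoblasts. Smooth muscle markers had 1 of 8 higher and 1 lower. Of 10 endothelial and 11 macrophage and blood markers, 9 and 7 stayed below 1 TPM in all 8 libraries.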

How the data were processed

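RNA of 8 C2C12 libraries, 4 of day 7 myotubes and 4 of day 0 myoblasts, was compared, within a table of 24 libraries in 6 groups. The authors deposited TPM values and, in a second table, values on a log2 scale that are not counts. The normalization of the log2 table is not given in the sources used here. The submitters' processing notes name GRCm39, Salmon, kallisto 0.51.1 and DESeq, without roles. Genes whose log2-scale value corresponds to at least 10 in at least 4 libraries entered a limma fit (version 3.58.1, R 4.3.3, trend, all 24 libraries, 1 mean per group, two-sided, Benjamini-Hochberg over 16257 genes). Count models were not used, since neither table holds counts. On simulated data with the spread of the 24 libraries, 100 of 16257 genes were given a difference of 1 and another 100 a difference of 0.5. Of these, 86% and 50% were recovered, none with the wrong sign, while 5 unchanged genes were called. The noise was independent between libraries and few genes were changed, whereas 60.3% were called in the real comparison. These shares therefore do not give the recovery or error rate of that comparison.

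Library depth is unknown, so no counting intervals are given. Same-numbered libraries of the groups deviated together: their correlations were 0.212, 0.196, 0.207 and 0.145, against at most 0.088 with other numbers. The numbers thus pair the libraries by the data, not by the labels, and the fit with the number as a block is an alternative. Other alternatives were log2(TPM + 0.1), log2(TPM + 1), no filter, quantile normalization, the 8 libraries alone and leaving out each replicate. A few genes are not reported here. Genes named are the 15 steepest rises and falls, members of the lists and pairs, and Gm15662 and Mir6236, which had very high TPM. Among the other observations they are genes near 0 in one group, chosen after their values were seen. The members, lists and pairs were chosen with earlier results of these data known, and symbols of histone genes were matched to the older names in the files. Promoters are RefSeq windows of GRCm38.p6, not of the build named in the processing notes, and serve only for their letters.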

Additional observations from a re-analysis of the deposited data

Results flagged for a closer look

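Among 4 libraries, 1 stood apart from the other 3 where its gap to the nearest of them, as a share of the whole range, exceeded Dixon's critical value for 4 samples, in 47 of 598 gene and group combinations examined for the genes named. Chance alone gives about 1 in 20 such flags, and several of these genes are near 0 TPM.

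Of the myotube libraries, replicate 1 was set apart on the high side in genes of dividing and precursor cells. It held 129 TPM of Id3, 67.8 TPM of Id1, 20.7 TPM of Myf5, 12.8 TPM of Lmnb1, 14.2 TPM of Mcm3, 8.37 TPM of Kpna2 and 2.93 TPM of E2f7. It was also the high library for Igf2 at 65.8 TPM, Peg10 at 6.71 TPM, Ptn at 11.9 TPM, Tagln2 at 148.1 TPM, Cavin3 at 71.5 TPM, Fabp5 at 18.7 TPM, Sprr1a at 1.21 TPM, Hist1h2ae at 2.30 TPM and Tnmd at 0.142 TPM. The same library was set apart on the low side with 147 TPM of Mfap5 and 11.2 TPM of Gm8300.

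Other myotube libraries were set apart in single genes. Replicate 2 was low for Cacna2d1 at 39.5 TPM and Blnk at 0.568 TPM. Replicate 3 was high for Mymk at 888 TPM, Tead3 at 28.0 TPM, Itga11 at 12.7 TPM and Tln2 at 12.0 TPM, and low for Eef1a1 at 6040 TPM and Rpl3l at 0.0716 TPM. Replicate 4 was low for Smarcd3 at 50.2 TPM.

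Of the myoblast libraries, replicate 2 held 17150 TPM of Mir6236, far above the others. It was the low library for Myl12a at 1053 TPM, Itga7 at 93.6 TPM, Slc2a1 at 57.7 TPM, Hmga2 at 52.9 TPM, Areg at 12.1 TPM, Chrnd at 8.89 TPM, Spry1 at 1.74 TPM and Ngfr at 0.645 TPM, and high for Eef1a2 at 0.00978 TPM and Thy1 at 0.0202 TPM. Replicate 3 was high for Casq1 at 0.815 TPM, Clcn1 at 0.535 TPM, Dmd at 0.0629 TPM and Chrne at 0.0147 TPM, and low for Hsd11b1 at 0.203 TPM. Replicate 4 was low for Mylpf at 103 TPM and Tnni1 at 28.5 TPM and high for Rpl3l at 0.0202 TPM, and replicate 1 was high for Slc2a4 at 1.09 TPM. The cause of these departures was not tested.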

How the results depend on the processing

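No gene called in either direction was called in the opposite direction under any of the 16 alternatives. The number of genes called stayed between 8785 with log2(TPM + 1) and 10219 without the filter, against 9797. The number with a difference of at least 1 was 3513 with log2(TPM + 0.1) and 3494 when Gm15662 and Mir6236 were also left out, an alternative chosen after seeing the data, against 2309. The deposited log2 values are shrunken toward smaller differences than TPM gives. Leaving out each replicate gave 9023 to 9604 called genes, and 2220 to 2485 with a difference of at least 1. With the replicate number as a block, 10047 genes were called, 9724 of them in the same direction as without it, and 2311 had a difference of at least 1. The block changed no other named call than that of Rpl3l, which it called higher (adjusted p = 0.0399). Without the day 8 and day 10 replicate 1 libraries, an alternative chosen after seeing the data, 10017 genes were called.

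Of 4730 values of named genes under the alternatives, 4711 kept their direction and call, 4 lost the call, of Igf2 and Eef1a2, and 15 gained one, of Cav1, Cox6a1, Gins4, Hes1, Mir6236 and Rpl3l. Of 1696 counts of list members, 71 moved by more than 1.5 times, mostly small counts. Sarcomere genes called higher numbered 56 to 58 and DNA replication genes called lower 46 to 49. Values near 0 TPM rest on few reads, and unknown depth limits them most.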

Other observations

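A set of 24 genes was below 0.5 TPM in every myoblast library, had a mean of at least 10 TPM in myotubes and was called higher. This set was chosen after its values were seen. It held several muscle genes outside the lists. Myl2, the regulatory light chain of slow and cardiac muscle, stood at 12.5 ± 3.88 TPM in myotubes against 0.0141 TPM in myoblasts. Abra, an actin-binding activator of serum response factor, stood at 18.7 ± 5.44 TPM in myotubes against 0.264 TPM in myoblasts, and Hspb3, a small heat shock protein of muscle, at 12.7 ± 1.58 TPM in myotubes against 0.151 TPM in myoblasts. Others are known mainly from outside skeletal muscle. Fn3k, a kinase that removes sugars bound to proteins, stood at 26.6 ± 0.622 TPM in myotubes against 0.262 TPM in myoblasts (adjusted p = 7.61e-16). Gja5, the gap junction protein connexin 40, stood at 15.0 ± 2.07 TPM in myotubes against 0.333 TPM in myoblasts, and Tas1r1, a taste receptor subunit, at 11.2 ± 1.82 TPM in myotubes against 0.250 TPM in myoblasts. Ighm, the heavy chain of immunoglobulin M, stood at 12.7 ± 4.05 TPM in myotubes and was listed at 0 in all 4 myoblast libraries (adjusted p = 5.16e-13). In the opposite direction, the predicted gene Gm28439 was listed at 0 in all 4 myotube libraries and stood at 303.3 ± 206 TPM in myoblasts (adjusted p = 0.0206). The predicted gene Gm28900, in the set of 24, stood at 95.9 ± 66.3 TPM in myotubes against a mean of 0 TPM in myoblasts (adjusted p = 0.0184). The SD of both was large beside the mean. Whether their reads belong to similar sequences elsewhere was not tested.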
